A study of Mus musculus with 3 samples.

Results

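The Hedgehog signalling genes described here were Dhh (Desert hedgehog, ENSMUSG00000023000), Ptch1 (ENSMUSG00000021466), Smo (ENSMUSG00000001761), Gli1 (ENSMUSG00000025407), Gli2 (ENSMUSG00000048402), Gli3 (ENSMUSG00000021318) and Hhip (ENSMUSG00000064325). They were taken by symbol from the deposited gene lists and make up 7 of the 28001 features. All 7 were read in the libraries. They were selected on their UMI levels over gated cell classes in these same libraries, with the ligand Dhh in endothelial and glial cells and the receptor and target genes in mural cells and fibroblasts. Their levels over classes are therefore given as a description, and no test is made of them.

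The cells came from ICR mice of the genotype HCN4H2BGFP at postnatal day 2, a reporter line in which a green fluorescent histone is made under the control of the pacemaker channel gene Hcn4. There were 3 libraries made with a 10x Genomics kit, and each group had 1 library. Cells of the sinoatrial node region were sorted for HCN4-GFP (GFP-positive library) or against it (GFP-negative library), and those of the RA library were left unsorted. The tissue label of the RA library also reads sinoatrial node region, so its title and its tissue label disagree, and it is called RA here. The number of animals behind a library is not stated in the labels. There are no replicates, so every interval below is a 95% interval for counting error in unique molecular identifiers (UMIs) or cells, and a difference between groups cannot be told apart from a difference between libraries.

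Hedgehog ligands are secreted lipid-modified proteins. Without ligand the receptor Ptch1 holds back the membrane protein Smo, and binding of ligand frees Smo to act at the primary cilium on the GLI transcription factors. Gli2 and Gli3 carry the first response, Gli3 mostly as a repressor and Gli2 mostly as an activator, while Gli1 is itself switched on by the pathway. Ptch1, Gli1 and Hhip, a membrane protein that binds ligand and limits its spread, are widely used as readouts of pathway activity. Dhh is best known as the ligand of Schwann cells, which acts on the connective tissue sheath of peripheral nerves, and of Sertoli cells in the testis, and it is also made by endothelial cells.

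Classes were set by marker UMIs. A cell passed the gate of a class with at least 1 UMI of at least 3 of the 7 markers of that class, and it was kept only if no other class gate was passed. This left 2053, 137 and 165 endothelial cells in the GFP-positive, GFP-negative and RA libraries. The GFP-negative library gave 49 glial cells, 241 mural cells (pericytes and smooth muscle) and 981 fibroblasts, and the RA library gave 26 mural cells and 229 fibroblasts. The GFP-positive library held 4 fibroblasts, 2 mural cells and no glial cell by this gate, so sender and receiver classes could be set side by side only in the other libraries. This library was sorted for the reporter of a pacemaker channel, and 386 of its cells passed the cardiomyocyte gate, 12 of them alone. The 3 libraries held 50416748, 38204709 and 19975326 UMIs, and the kept cells had median depths of 12429, 11417 and 14143 UMIs. Between 7 and 18 barcodes were shared by each pair of libraries. The gate left out 1124, 1306 and 691 cells that passed several gates, which were deeper than the rest, with medians of 18873, 13747 and 16230 UMIs. A looser rule, chosen after these counts were seen, assigns a cell to the class with most of its 7 markers read, if at least 3 are read and the class leads every other by at least 2. It is called the leading-class gate below, and its values are given beside the main ratios that it moved by more than 1.5 times. By that gate 139 cells of the GFP-positive library were cardiomyocytes.

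The promoters of the genes are shown for the ligand, for 2 target genes that were read together in fibroblasts, and for Gli2, the 1 member with a match to the GLI motif. The windows run from 250 bases before to 50 bases after the gene start in RefSeq annotation of GRCm38.p6, a build other than the mm9 of the deposited counts, and they were found for 6 of the 7 members, all but Gli1. The letters searched on both strands were the GLI consensus GACCACCCA and, within it, the core ACCACCC. The consensus occurred in 83 of 32851 promoter windows of this length (0.253%) and in none of the 6. The core occurred in 1514 windows (4.61%), and among the members in that of Gli2, where it starts 205 bases before the gene start on the opposite strand and is set in capitals. Sequences are written 5′ to 3′ along the gene's strand, which is the minus strand for all 4: Dhh at chr15:98898491-98898790, Ptch1 at chr13:63565686-63565985, Hhip at chr8:80057959-80058258 and Gli2 at chr1:119053570-119053869. No match means only that these letters were not in these windows.
Dhh: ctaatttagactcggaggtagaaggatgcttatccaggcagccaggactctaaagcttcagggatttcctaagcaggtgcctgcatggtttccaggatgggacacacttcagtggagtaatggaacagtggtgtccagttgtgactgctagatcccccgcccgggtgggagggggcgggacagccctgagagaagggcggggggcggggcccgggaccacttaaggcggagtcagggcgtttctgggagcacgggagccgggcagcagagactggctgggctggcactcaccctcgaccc
Ptch1: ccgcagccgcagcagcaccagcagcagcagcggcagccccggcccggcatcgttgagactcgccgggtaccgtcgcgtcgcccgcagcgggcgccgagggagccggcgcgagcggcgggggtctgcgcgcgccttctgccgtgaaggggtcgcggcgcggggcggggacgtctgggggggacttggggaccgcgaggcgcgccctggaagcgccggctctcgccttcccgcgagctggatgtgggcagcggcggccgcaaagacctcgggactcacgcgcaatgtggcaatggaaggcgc
Hhip: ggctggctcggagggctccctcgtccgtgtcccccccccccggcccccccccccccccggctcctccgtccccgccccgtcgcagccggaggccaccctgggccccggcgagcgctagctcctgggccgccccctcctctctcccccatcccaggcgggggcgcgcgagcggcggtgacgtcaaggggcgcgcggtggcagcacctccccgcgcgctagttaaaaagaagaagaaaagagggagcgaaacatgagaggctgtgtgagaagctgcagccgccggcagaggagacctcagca
Gli2: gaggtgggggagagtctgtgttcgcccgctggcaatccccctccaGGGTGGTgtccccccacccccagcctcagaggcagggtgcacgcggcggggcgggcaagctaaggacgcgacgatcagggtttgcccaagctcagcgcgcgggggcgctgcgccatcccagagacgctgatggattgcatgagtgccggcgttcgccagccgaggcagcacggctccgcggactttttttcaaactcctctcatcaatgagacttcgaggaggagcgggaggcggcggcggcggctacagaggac

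Dhh was read at a high level in endothelial cells of the GFP-positive library and in glial cells of the GFP-negative library. It had 6.90 CPM or less in every other class of at least 50 cells in a library. In the GFP-positive endothelial cells it had 3006 UMIs, or 118 UMIs per 1000000 UMIs of the class (CPM; interval 114 to 123). The endothelial cells of the other libraries had 3 UMIs each, which is 2.40 CPM (0.496 to 7.02) in GFP-negative and 1.82 CPM (0.374 to 5.30) in RA. In the 49 glial cells there were 71 UMIs, or 163 CPM (128 to 206). Dhh had 0 UMIs in the 241 GFP-negative mural cells, which at a floor of 3 UMIs allows a level of up to 1.43 CPM and a share of cells with a UMI of up to 1.24%. Fibroblasts had 2 UMIs (0.188 CPM) in the GFP-negative and 1 UMI (0.305 CPM) in the RA library. Among classes of at least 50 cells, mesothelial cells of the GFP-positive library came next with 4 UMIs in 65 cells, or 6.90 CPM (1.88 to 17.7). That lay above the interval of fibroblasts of another library, GFP-negative (0.0228 to 0.680). Smaller classes of the GFP-positive library had 6.66 CPM (1 UMI in 12 cardiomyocytes) and 5.09 CPM (1 UMI in 18 leukocytes). Under the leading-class gate its mesothelial cells had 9.97 CPM, its cardiomyocytes 8.27 CPM and its leukocytes 6.68 CPM. The glial and GFP-positive endothelial levels stood above those of all other classes of at least 50 cells.

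**Figure D1:**
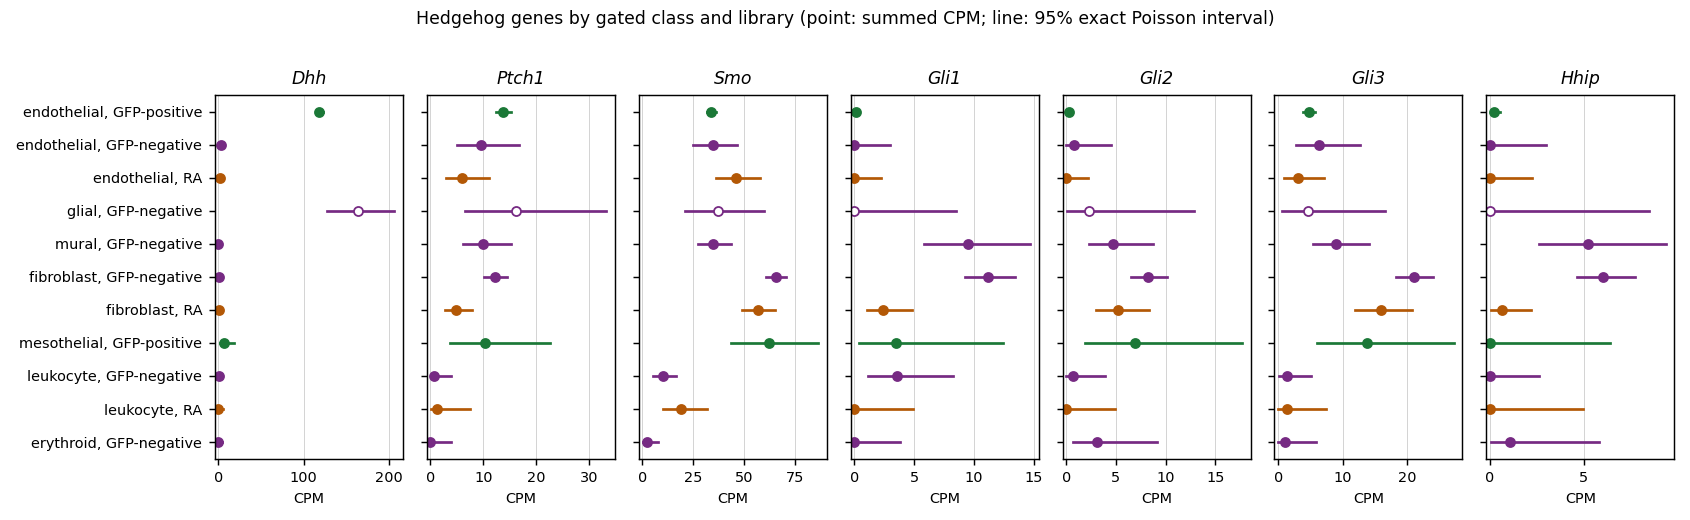
Levels of the 7 genes in CPM (horizontal axes, a scale for each gene) by gated class and library, with 95% exact Poisson intervals as lines. Green points are the GFP-positive, purple the GFP-negative and orange the RA library, and the open points mark the 49 glial cells, a class under 50 cells. Dhh is at 118 CPM in GFP-positive endothelial cells and at 163 CPM in glial cells, while Gli1, Gli2 and Hhip are near 0 in endothelial cells and read in mural cells and fibroblasts.

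The Dhh reads were spread over many cells. In the GFP-positive library 53.7% of endothelial cells had a UMI (51.5 to 55.9), 13.3% had 4 or more, and the highest cell had 18. Of the endothelial cells in the GFP-negative library 2.19% had a UMI, and in RA 1.21%. Among glial cells 57.1% had a UMI (42.2 to 71.2), 14.3% had 4 or more and the highest had 12. Leukocytes, taken as a class that should lack Dhh, gave the background of the GFP-negative library, with 0.575% of 174 cells read. In the GFP-positive library 1 of 18 leukocytes (5.56%; 0.141 to 27.3) and 1 of 12 cardiomyocytes (8.33%; 0.211 to 38.5) had a UMI. The mesothelial cells there had 4.62% read. Under the leading-class gate the GFP-positive shares were 13.5% of 312 mesothelial cells (9.88 to 17.8), 14.4% of 139 cardiomyocytes (9.02 to 21.3) and 8% of 25 leukocytes (0.984 to 26.0). Median depths were 10491 UMIs in GFP-positive endothelial cells, 8435 in GFP-negative and 9851 in RA endothelial cells, 6957 in glial cells, 7874 in GFP-negative leukocytes and 8539 in mesothelial cells. After each cell was thinned to 2000 UMIs, 20.5% of GFP-positive endothelial cells and 16.3% of glial cells still had a UMI, against 0 of 137 GFP-negative and 0 of 165 RA endothelial cells.

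**Figure D2:**
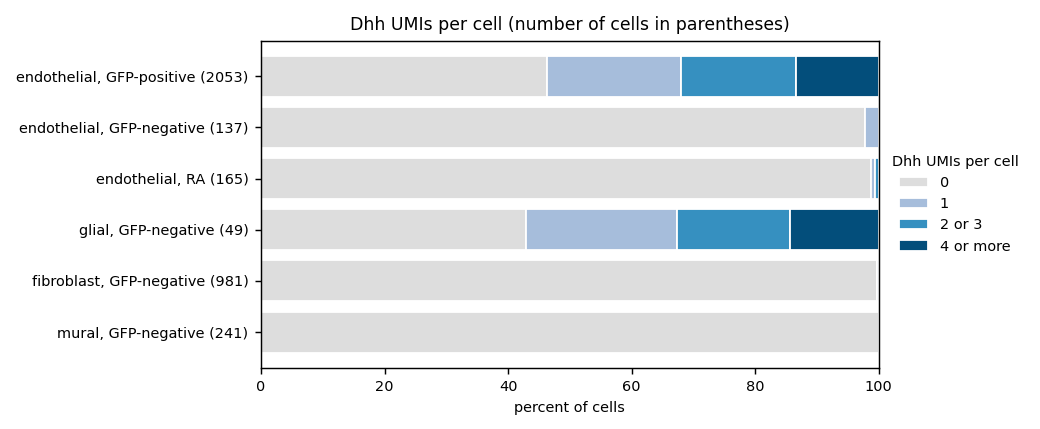
Share of cells (horizontal axis, percent) with 0, 1, 2 or 3, and 4 or more Dhh UMIs in each gated class and library, with the number of cells in parentheses. Cells with a UMI make up 53.7% of the bar for GFP-positive endothelial cells and 57.1% for glial cells.

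The difference between endothelial cells of the libraries was 49.2-fold for GFP-positive over GFP-negative (16.8 to 239) and 65.2-fold for GFP-positive over RA (22.3 to 316). Dhh was the only one of 4 members measured (at least 10 UMIs over both sums) to pass 2-fold over GFP-negative cells, and Dhh and Ptch1 passed it over RA, while none was more than 2-fold lower. Of all genes measured, 12.2% were more than 2-fold higher in GFP-positive than in GFP-negative endothelial cells and 7.85% lower, and 13.9% were more than 2-fold higher than in RA and 7.43% lower. Under the leading-class gate the first ratio was 15.0-fold (9.48 to 25.4), from 119 CPM in 2505 GFP-positive against 7.91 CPM in 204 GFP-negative cells, and the second was 42.6-fold (22.4 to 93.3). By that gate Gli2 was also measured, and it was more than 2-fold lower in GFP-positive than in GFP-negative cells. It had 7 and 4 UMIs, a ratio of 0.112 (0.0285 to 0.523). The 204 cells held 18 Dhh UMIs, of which 10 lay in 2 cells that also passed the glial gate and 9 in 1 of them. Without those 2 cells the level was 3.57 CPM (1.54 to 7.03). The 7 glial markers summed to 10.5 CPM in the GFP-positive endothelial cells, against 20151 CPM in the glial cells. S100b had 8.50 CPM of that, and Sox10, Foxd3 and Cdh19 were at 0. The gate itself keeps cells past the glial or epithelial gate out of the endothelial class, and cells with and without Dhh were not compared for these markers. The 7 epithelial markers summed to 313 CPM in GFP-positive, 0.801 CPM in GFP-negative and 1.21 CPM in RA endothelial cells. Nearly all of the GFP-positive sum was Scgb3a2, a secreted airway protein, at 297 CPM. The 85 GFP-positive cells past the epithelial gate, alone or with other gates, had 47.7 CPM of Dhh, less than the endothelial cells. The part of such free or mixed RNA in the Dhh result was not tested. The gene Rhebl1 overlaps Dhh on the same strand in a mouse annotation of another build, and it had 3.23 CPM in GFP-positive, 3.20 CPM in GFP-negative and 1.21 CPM in RA endothelial cells.

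Within the GFP-positive endothelium Dhh was highest in arterial cells. Cells were assigned to a subset by its markers, with at least 2 read and more than for any other subset. Arterial cells had 267 CPM (250 to 284; 241 cells), and 84.6% of them had a UMI. Venous cells had 147 CPM (139 to 156; 599 cells), 394 cells with no single subset 115 CPM, capillary cells 49.8 CPM (38.0 to 64.2; 103 cells), endocardial cells 48.7 CPM (43.7 to 54.1; 568 cells) and lymphatic cells 40.3 CPM (31.6 to 50.5; 148 cells). Arterial cells were 1.81-fold above venous cells (1.66 to 1.98) and 5.48-fold above endocardial cells (4.83 to 6.21). Capillary and endocardial cells did not differ beyond counting error, with a ratio of 1.02 (0.764 to 1.35), and neither did endocardial and lymphatic cells, with a ratio of 1.21 (0.939 to 1.58). Single markers were read against Dhh in the same cells. Of 7 arterial markers, 6 had more Dhh in the cells with a UMI of the marker than in those without, and Hey1 did not. Gja5, an arterial gap junction gene, had 213 against 88.0 CPM, and Gkn3 had 184 against 81.1 CPM. The venous markers went both ways. Vwf, the von Willebrand factor, had 129 CPM of Dhh in cells with it against 47.6 CPM in cells without, while Nr2f2, a transcription factor of vein identity, had 95.6 against 171 CPM. Of 7 endocardial markers, 5 had less Dhh in the cells with them, such as the natriuretic peptide receptor gene Npr3, at 72.1 against 145 CPM. All 6 lymphatic markers did too. Cells with a marker read had the higher median depth for each of these markers other than Rspo3, for example 12706.5 against 9993 UMIs for Gja5.

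**Figure D3:**
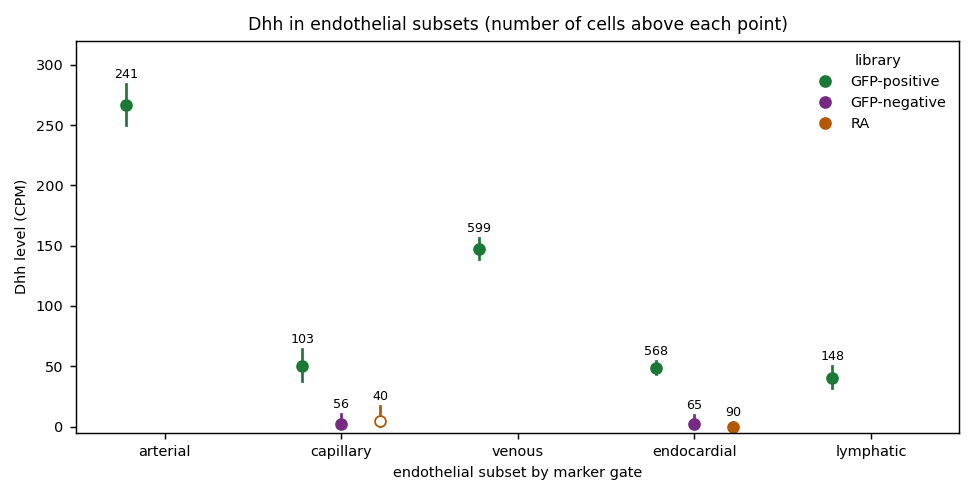
Dhh level in CPM (vertical axis) in endothelial subsets of the GFP-positive, GFP-negative and RA libraries, with 95% exact Poisson intervals as lines and the number of cells above each point. Subsets of fewer than 20 cells are left out and open points have fewer than 50 cells. Arterial cells of the GFP-positive library are at 267 CPM and the endocardial cells are at 48.7, 1.75 and 0 CPM in the GFP-positive, GFP-negative and RA libraries.

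The libraries held different endothelial subsets, so the difference between them was also taken within a subset. Endocardial cells had 48.7 CPM in the GFP-positive library (568 cells) and 1.75 CPM, 1 UMI, in the GFP-negative library (65 cells), a ratio of 27.8 (4.96 to 1101). In the 90 endocardial cells of RA there were 0 UMIs, so the GFP-positive level was at least 14.6-fold higher, taken against a floor of 3 UMIs over the group. Capillary cells had 49.8 CPM in the GFP-positive and 1.90 CPM, 1 UMI in 56 cells, in the GFP-negative library, a ratio of 26.3 (4.54 to 1054). Under the leading-class gate the endocardial ratio over GFP-negative was 6.88 (3.14 to 18.8) and the capillary ratio 24.8 (6.66 to 208). Over RA the endocardial ratio was then 73.1 (13.1 to 2893), on 1 UMI in RA, and the capillary ratio 11.8 (4.44 to 44.2). Fewer than 50 arterial, venous or lymphatic cells were gated in each of the other libraries.

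Reporter reads and Dhh could be set side by side in single cells. A reporter UMI was read in 34.9% of GFP-positive, 3.65% of GFP-negative and 0.606% of RA endothelial cells, and Hcn4 itself had 46, 0 and 0 UMIs. In the GFP-positive library the 716 endothelial cells with a reporter UMI had 145 CPM of Dhh, against 99.5 CPM in the 1337 cells without one. The median depth was 12692.5 UMIs in the first and 9636 in the second, and the part of depth in this difference was not tested.

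In the GFP-negative library the Dhh reads followed the glial gate. The 90 of 3032 kept cells that passed it, alone or with other gates, held 157 of the 179 Dhh UMIs of the library (87.7%) at 163 CPM. The 49 cells that passed it alone carried all 7 glial markers, among them Sox10, a transcription factor of neural crest glia. Under the leading-class gate 62 glial cells had 117 Dhh UMIs, or 183 CPM, against 6 UMIs or 0.360 CPM in 1349 fibroblasts, a ratio of 508 (227 to 1413). In that comparison 19.5% of the genes measured were more than 2-fold higher in glial cells. In the GFP-positive library 99.7% of the 4371 Dhh UMIs lay in cells that passed the endothelial gate, which were 3131 of its 3289 kept cells, and the RA library had 10 Dhh UMIs in all.

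Ptch1, the receptor for Hedgehog ligands and itself a target of the pathway, did not follow the pattern for which the genes were picked. Its intervals in mural cells and fibroblasts overlapped that in endothelial cells of the same library. In the GFP-negative library Ptch1 had 9.98 CPM in mural cells (6.18 to 15.2), 12.2 CPM in fibroblasts (10.2 to 14.5), 16.1 CPM in glial cells (6.48 to 33.2) and 9.61 CPM in endothelial cells (4.97 to 16.8), and these intervals overlap. Endothelial cells of the GFP-positive library had 13.8 CPM (12.4 to 15.3). In RA it had 4.88 CPM in fibroblasts (2.79 to 7.93) and 6.05 CPM in endothelial cells (2.90 to 11.1). Fibroblasts over endothelial cells gave 1.27-fold in the GFP-negative library (0.705 to 2.53) and 0.807-fold in RA (0.344 to 1.99), and mural over endothelial cells gave 1.04-fold in the GFP-negative library (0.488 to 2.31). With a gate of 2 markers, which left fewer cells, the log2 ratios over GFP-negative endothelial cells were lower. They turned to -0.67 for fibroblasts and -2.03 for mural cells. No interval is given for these values, so a dependence on the gate cannot be told apart from counting error. Leukocytes had 1 Ptch1 UMI each in the GFP-negative library, at 0.707 CPM, and in the RA library, at 1.34 CPM, and the 59 erythroid cells of the GFP-negative library had 0. GFP-positive endothelial cells were 2.28-fold above those of RA (1.23 to 4.80) and 1.44-fold above GFP-negative ones (0.812 to 2.81).

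Inside the GFP-positive endothelium Ptch1 varied less than Dhh. Arterial cells had 18.2 CPM, venous 12.1, capillary 14.1, endocardial 11.9 and lymphatic 12.5. Arterial over endocardial cells came to 1.53-fold (1.09 to 2.14) for Ptch1, next to 5.48-fold for Dhh. A Ptch1 UMI was read in 17.0% of the endothelial cells with a Dhh UMI (14.8 to 19.3) and in 12.2% of those without (10.2 to 14.5), with median depths of 11373 and 9646.5 UMIs. Gli1 and Hhip, the other target genes, had 3 and 6 UMIs in these 2053 cells.

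Smo, the transducer that Ptch1 holds back, was read in every class of at least 50 cells. Fibroblasts had 65.3 CPM (60.5 to 70.3) in the GFP-negative and 56.5 CPM (48.6 to 65.2) in the RA library, and GFP-negative mural cells had 34.7 CPM (27.2 to 43.6). Its level in endothelial cells was 33.8 CPM (31.5 to 36.1) in GFP-positive, 34.5 CPM (24.9 to 46.4) in GFP-negative and 46.0 CPM (36.2 to 57.5) in RA. Fibroblasts over endothelial cells gave 1.89-fold in the GFP-negative library (1.39 to 2.64) and 1.23-fold in RA (0.935 to 1.63). Mesothelial cells of the GFP-positive library were in the range of fibroblasts, with 62.1 CPM (43.5 to 86.0; 65 cells). Under the leading-class gate they had 75.4 CPM (67.8 to 83.6; 312 cells). Erythroid cells were lowest with 2.09 CPM in the GFP-negative library, and leukocytes of the GFP-negative library had 9.90 CPM.

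Gli1, the GLI factor switched on by the pathway, was read in fibroblasts and mural cells and hardly at all in endothelial or glial cells. In the GFP-negative library fibroblasts had 119 UMIs, or 11.2 CPM (9.28 to 13.4), and mural cells 20 UMIs, or 9.50 CPM (5.80 to 14.7). The endothelial cells of that library had 0 UMIs, so fibroblasts were at least 4.66-fold and mural cells at least 3.95-fold higher. Under the leading-class gate, with 2 endothelial UMIs, these ratios were 12.5 (3.41 to 104) and 8.69 (2.23 to 74.6). The 49 glial cells also had 0 UMIs, which at the floor of 3 UMIs allows up to 6.91 CPM. Mural cells over fibroblasts gave 0.848-fold (0.50 to 1.37). With a gate of 2 markers, which left 101 mural cells, mural over endothelial cells no longer passed 2-fold (log2 ratio of 0.69). That ratio is given without an interval, so a change with the gate cannot be told apart from counting error. Of GFP-negative fibroblasts 10.3% had a Gli1 UMI (8.46 to 12.4), against 2.87% of leukocytes (0.940 to 6.58), with median depths of 10498 and 7874 UMIs. After thinning to 2000 UMIs the shares were 2.04% and 2.30%, so at equal depth the 2 classes cannot be ordered by this share. In CPM the leukocytes had 5 UMIs or 3.54 CPM (1.15 to 8.25).

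Gli2 and Gli3 were also higher in fibroblasts than in endothelial cells. Gli2 had 8.19 CPM (6.56 to 10.1) in fibroblasts, 4.75 CPM (2.28 to 8.74) in mural cells and 0.801 CPM, 1 UMI, in endothelial cells of the GFP-negative library. Fibroblasts over endothelial cells gave 10.2-fold (1.79 to 409), and 4.64-fold (1.77 to 17.3) under the leading-class gate. Gli3 had 21.0 CPM (18.3 to 23.9) in GFP-negative and 15.9 CPM (11.8 to 20.8) in RA fibroblasts, and 9.03 CPM (5.43 to 14.1) in GFP-negative mural cells. It was also read in endothelial cells, with 4.72 CPM in GFP-positive, 6.41 CPM in GFP-negative and 3.03 CPM in RA. Fibroblasts were 3.28-fold above endothelial cells for Gli3 in the GFP-negative library (1.64 to 7.68) and 5.25-fold in RA (2.11 to 16.8), where the leading-class gate gave 2.996 (1.77 to 5.42). Mural cells had 0.430 times the Gli3 level of fibroblasts (0.254 to 0.687). The 65 mesothelial cells of the GFP-positive library had 6.90 CPM of Gli2 on 4 UMIs (1.88 to 17.7) and 13.8 CPM of Gli3 on 8 UMIs (5.96 to 27.2). Under the leading-class gate mesothelial cells had 2.91 CPM of Gli2 (1.59 to 4.88) and 13.7 CPM of Gli3 (10.6 to 17.4).

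Hhip, the ligand-binding inhibitor, rested on few cells. In GFP-negative fibroblasts it had 64 UMIs in 35 of 981 cells, or 6.03 CPM (4.64 to 7.70), and the highest cell had 5. Mural cells of that library had 11 UMIs in 5 cells, or 5.23 CPM (2.61 to 9.35), of which 7 lay in 1 cell, and without that cell the level was 1.91 CPM. In the leading-class gate the 409 mural cells had 4 UMIs, or 0.873 CPM. The 26 RA mural cells had 12 UMIs in 2 cells, with 10 in 1 of them. Both of those RA cells, and 8 of the 11 GFP-negative UMIs, belonged to smooth muscle cells with a UMI of Actg2, an enteric and visceral smooth muscle actin. Endothelial cells had 6, 0 and 0 Hhip UMIs in the GFP-positive, GFP-negative and RA libraries.

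Of the 6 members measured between fibroblasts and endothelial cells of the GFP-negative library, Gli1, Gli2, Gli3 and Hhip were more than 2-fold higher in fibroblasts and none was lower. Over all 13081 genes measured in that comparison 17.8% were higher by that rule and 13.8% lower, and the pattern was the one the members were picked for. Between mural and endothelial cells Gli1, Gli2 and Hhip were higher, against 16.3% of all genes, and none was lower, against 12%. Of these, the Gli2 ratio of 5.93 (0.844 to 257) has an interval that includes equality, and it did not pass 2-fold when cells were thinned to 2000 UMIs (log2 ratio of 0.77). Under the leading-class gate the Gli2 ratio was 3.35 (1.17 to 13.2). Hhip had too few UMIs to be measured under the leading-class gate. Gli1 did not pass 2-fold with a gate of 2 markers, which left fewer cells and is given without an interval.

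The target genes also differed between fibroblasts of the GFP-negative and RA libraries. Gli1 had 11.2 CPM in GFP-negative and 2.44 CPM (8 UMIs) in RA fibroblasts, a ratio of 4.59 (2.26 to 10.9). Ptch1 had 12.2 CPM in GFP-negative and 4.88 CPM in RA fibroblasts, a ratio of 2.51 (1.49 to 4.52). Hhip had 6.03 CPM in GFP-negative and 0.610 CPM (2 UMIs) in RA fibroblasts, a ratio of 9.88 (2.62 to 83.3), and 16.0 (5.33 to 78.9) under the leading-class gate. These 3 of the 6 measured members were more than 2-fold higher in the GFP-negative library, against 9.52% of all genes measured, and none was lower, against 3.57%. Smo, Gli2 and Gli3 gave ratios of 1.16 (0.981 to 1.37), 1.58 (0.932 to 2.83) and 1.32 (0.975 to 1.83). The Ptch1 and Hhip calls did not hold with other settings. A gate of 2 markers, which left 351 GFP-negative and 52 RA fibroblasts, gave log2 ratios of 0.56 for Ptch1 and 0.16 for Hhip, and thinning every cell to 2000 UMIs gave 0.84 for Hhip. Median depth was 10498 UMIs in GFP-negative and 14672 UMIs in RA fibroblasts, and 16.2% of GFP-negative and 24.0% of RA fibroblasts passed a gate of cycling genes. Haemoglobin made up 0.765% of the UMIs in GFP-negative and 1.02% in RA fibroblasts. The part of depth or cycling in these differences was not tested. Mural cells of the 2 libraries could be compared only under the leading-class gate, with 409 GFP-negative and 65 RA cells. Gli1 had 7.64 and 3.53 CPM, a ratio of 2.16 (0.682 to 11.0), and Ptch1 had 7.20 and 4.71 CPM, a ratio of 1.53 (0.544 to 5.94). Hhip went the other way, with 0.873 and 14.1 CPM, a ratio of 0.0618 (0.0145 to 0.204), and 10 of its 12 RA UMIs lay in 1 cell. Gli2 had 27 and 0 UMIs, at least 1.67-fold higher in GFP-negative mural cells. Smo and Gli3 gave ratios of 1.05 (0.715 to 1.60) and 0.927 (0.464 to 2.05).

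Fibroblast subsets carried the target genes unequally. Fibroblasts with at least 2 adventitial markers read, such as Clec3b, Pi16 and Dpp4, were set apart first and are called adventitial. The rest were split by a UMI of Tcf21, a factor of epicardium-derived fibroblasts. Any adventitial cells with a Tcf21 UMI are thus not among the Tcf21-read cells. Adventitial fibroblasts had 13.2 CPM of Gli1 in the GFP-negative library (625 cells) and Tcf21-read cells 6.02 CPM (238 cells), a ratio of 2.20 (1.27 to 4.08). For Hhip these subsets had 7.25 and 3.21 CPM, a ratio of 2.26 (1.06 to 5.50), which was 4.80 (2.33 to 11.5) under the leading-class gate. Ptch1 was highest in the 118 fibroblasts that were neither adventitial nor Tcf21-read, at 30.5 CPM, against 7.63 CPM in Tcf21-read cells, a ratio of 4.0 (2.17 to 7.55). Gli1 in those 118 cells was at 9.47 CPM on 9 UMIs, a ratio of 1.57 (0.607 to 3.84) that became 3.35 (1.66 to 6.57) with the leading-class gate. Smo, Gli2 and Gli3 gave ratios between 0.796 and 1.22 over Tcf21-read cells in both of the other subsets.

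**Figure D4:**
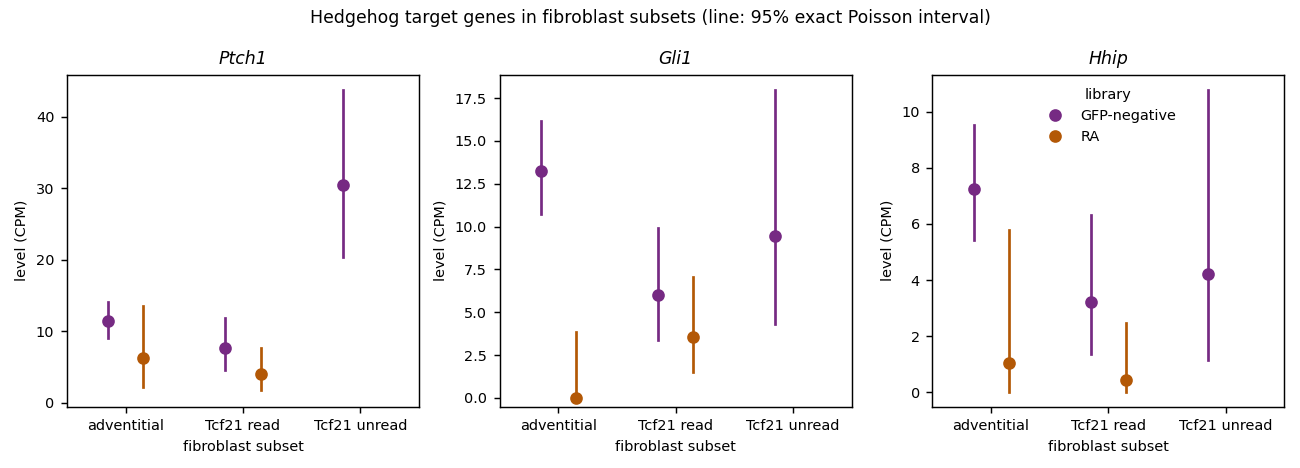
Levels of Ptch1, Gli1 and Hhip in CPM (vertical axes, a scale for each gene) in 3 fibroblast subsets of the GFP-negative (purple) and RA (orange) libraries, with 95% exact Poisson intervals. Only cells outside the adventitial subset are split by Tcf21. The RA subset that is neither adventitial nor Tcf21-read has 10 cells and is left out. Adventitial cells have 13.2 CPM of Gli1 in the GFP-negative library and 0 in RA. Ptch1 is highest, at 30.5 CPM, in GFP-negative cells that are neither adventitial nor Tcf21-read.

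Tcf21-read cells outside the adventitial subset were 238 of 981 fibroblasts in the GFP-negative and 157 of 229 in the RA library. The libraries were therefore also compared within subsets. In adventitial cells Gli1 had 95 UMIs, or 13.2 CPM, in the GFP-negative library and 0 UMIs in the 62 RA cells, so it was at least 4.24-fold higher. With the leading-class gate the levels were 13.1 CPM in 851 GFP-negative and 2.30 CPM in 121 RA cells, a ratio of 5.72 (2.39 to 17.9). Hhip in adventitial cells had 7.25 CPM in the GFP-negative library and 1.04 CPM, 1 UMI, in RA, a ratio of 6.96 (1.20 to 280.3). In Tcf21-read cells the Gli1 ratio was 1.69 (0.671 to 4.59), from 6.02 CPM in GFP-negative and 3.57 CPM in RA cells, and the Hhip ratio was 7.19 (0.964 to 319). The Ptch1 ratio was 1.83 (0.806 to 5.13) in adventitial and 1.90 (0.818 to 4.76) in Tcf21-read cells. These 4 intervals include equality. With the leading-class gate the Gli1 ratio in Tcf21-read cells was 2.22 (1.07 to 4.87), the Hhip ratio 8.87 (1.19 to 394), and the Ptch1 ratio 2.62 (1.42 to 5.36) in adventitial and 1.23 (0.708 to 2.15) in Tcf21-read cells. Whether the ratio differs between subsets was not tested.

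The target genes tended to be read in the same fibroblasts. In the GFP-negative library a Ptch1 UMI was read in 19.8% of the 101 fibroblasts with a Gli1 UMI (12.5 to 28.9) and in 8.75% of the 880 without (6.97 to 10.8). Among the 35 fibroblasts with a Hhip UMI, 37.1% had Ptch1 (21.5 to 55.1) and 31.4% had Gli1 (16.9 to 49.3), against 8.88% and 9.51% of the 946 fibroblasts without Hhip. Median depths were close for Gli1, at 11016 against 10372.5 UMIs, and further apart for Hhip, at 12611 against 10332 UMIs. In mural cells 3 of 17 cells with Gli1 had Ptch1 (17.6%), against 7.14% of 224 cells without it, and these intervals overlap. All of these cells come from 1 library, so they are not replicates.

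**Figure D5:**
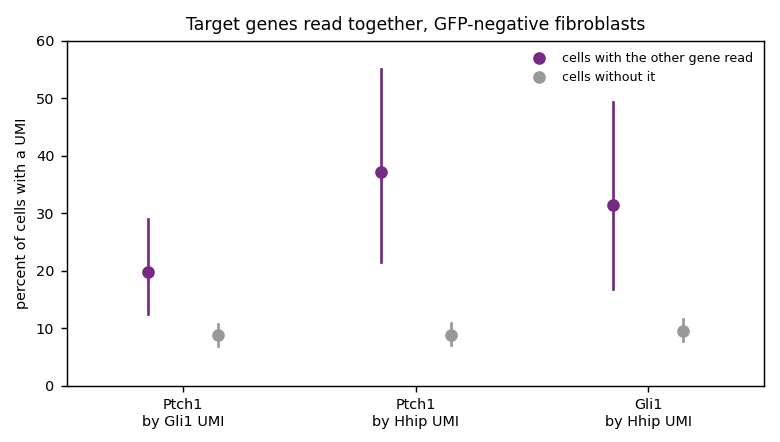
Percent of GFP-negative fibroblasts with a UMI of the first gene named (vertical axis), among cells with a UMI of the second gene (purple) and among cells without one (grey), with 95% Clopper-Pearson intervals. Ptch1 was read in 37.1% of fibroblasts with Hhip and in 8.88% of those without.

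The other 25 genes of a Hedgehog list, with ligands, release factors, co-receptors, brakes, cilium genes and targets, were looked at in the same cells, and 16 of them reached 10 CPM in a class of at least 50 cells. Co-receptors differed widely between classes. Gas1, which presents ligand to Ptch1, had 469 CPM in GFP-negative and 529 CPM in RA fibroblasts, 117 CPM in mural cells and 495 CPM in mesothelial cells, against 15.2, 20.03 and 14.5 CPM in GFP-positive, GFP-negative and RA endothelial cells. Boc, another co-receptor, had 39.7 CPM in GFP-negative and 9.46 CPM in RA fibroblasts, a ratio of 4.20 (2.92 to 6.26), with 23.3 CPM in GFP-negative mural and 18.9 CPM in GFP-positive endothelial cells. Cdon, the third of these, was highest in mesothelial cells at 117 CPM and had 28.4 CPM in GFP-negative and 15.3 CPM in RA fibroblasts. Mesothelial cells were also highest for Lrp2, a large endocytic receptor, with 72.5 CPM, and for Disp1, the transporter that releases ligand from its source cell, with 29.3 CPM. Disp1 had 5.0 CPM in the GFP-positive endothelial cells, where Dhh was read.

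Among release factors Scube3 was highest in mural cells, with 19.5 CPM in GFP-negative mural cells, where 13.7% of cells had a UMI. Endothelial cells of that library had 0.801 CPM on 1 UMI, a ratio of 24.3 (4.13 to 983). Scube3 was also read in GFP-positive mesothelial cells (6.90 CPM) and GFP-negative fibroblasts (3.11 CPM). Scube2 had 11.9 CPM in mural cells and 10.7 CPM in RA fibroblasts, and Scube1 had 11.3 CPM in RA fibroblasts. The cilium genes Evc and Evc2 had 12.6 and 14.2 CPM in GFP-negative fibroblasts and 12.8 and 14.3 CPM in mural cells, against 0 and 2.40 CPM in GFP-negative endothelial cells. Other cilium genes were broader. Arl13b had 20.4 CPM in mural, 18.8 CPM in fibroblast and 23.2 CPM in endothelial cells of the GFP-negative library, Kif3a had 19.0, 20.3 and 12.8 CPM in the same order, and Ift88 had 10.9, 6.97 and 8.81 CPM. Spop and Prkaca, brakes that act on the GLI factors, were between 46.6 and 107 CPM in all classes of at least 50 cells apart from erythroid cells, and Sufu reached 10.6 CPM in GFP-positive endothelial cells. Over the list, 14 of 21 genes measured were more than 2-fold higher in GFP-negative fibroblasts than in endothelial cells and 0 were lower. Of all genes measured, 17.8% were higher and 13.8% lower. The median log2 ratio was 1.87 over the list, against -0.12 over all genes measured. Between mural and endothelial cells 10 of 18 were higher and 1 was lower, where 16.3% and 12% of all genes were. The median there was 1.11 against -0.02 over all genes. Between GFP-negative and RA fibroblasts 3 of 21 were higher, namely Scube3, Boc and the target Foxf1, and 0 were lower, where 9.52% and 3.57% of all genes were, with a median of 0.20 against -0.04 over all genes. Between GFP-positive and GFP-negative endothelial cells 6 of 22 were higher and 3 were lower, where 12.2% and 7.85% of all genes were, with a median of 0.71 against 0.04.

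Genes with the most similar profile over classes were taken from the Pearson correlation of log2(CPM + 1) over 10 class and library pairs of at least 50 cells. The pairs share their libraries, and r is given only as a description. For Dhh these were Cldn7 (0.990), Serpina1b (0.989), Prrt4 (0.974), Pdzk1ip1 (0.971) and Vstm5 (0.970), each highest in GFP-positive endothelial cells. Dhh had 118 CPM in that pair and 6.90 CPM or less in the others, so these r values rest largely on that pair. Cldn7 belongs to the 7 epithelial markers and had 10.4, 0.801 and 0.605 CPM in GFP-positive, GFP-negative and RA endothelial cells. With the leading-class gate, which adds glial cells among its 14 pairs, they were Sema3g (0.956), Itgb4 (0.950), Adgrg1 (0.921), Lsamp (0.905) and Cldn11 (0.903). For Gli1 they were Arsi, Gpr27, Tenm3, Epb41l1 and Col14a1, with r between 0.909 and 0.931, and for Hhip they were Shisa3, C1qtnf3, Ccl11, Efhd1 and 3110079O15Rik, with r between 0.950 and 0.992. None of these 5 names for Gli1 or Hhip was among the 5 with the leading-class gate, which were Lgi2, Ltbp2, Pamr1, Pcdh18 and Scara3 for Gli1 and included Lrrtm3, Hrk, Wif1 and Foxf1 for Hhip. Among the members themselves r of Gli1 was 0.75 with Gli2, 0.72 with Hhip, 0.32 with Ptch1 and -0.30 with Dhh.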

How the data were processed

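The deposited files are matrices of raw counts of UMIs, 1 per library, as the authors made them. Cell Ranger and mm9 are named per the submitters' processing notes, with no version, and the end of the transcript read is not given in the sources used here. Kept barcodes had 500 genes or more and no more than 50% of UMIs from mitochondrial genes, which removed between 46 and 240 barcodes per library for few genes and between 4 and 11 for mitochondrial UMIs. No doublet caller was run. Leaving out the 5% deepest cells stood in for one.

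Classes of cells were gated on 7 markers each, and Ccl21a, listed under 2 IDs, was left out of the lymphatic set. Counts were summed per class and library as CPM with exact Poisson intervals. Ratios have exact conditional binomial intervals and shares Clopper-Pearson intervals. All are 95% intervals for counting error only, and no test was made with 1 library per group. Called means past 2-fold (log2 ratio of 1 with 0.5 UMIs added) with at least 10 UMIs in both sums, and a level over a sum of 0 was set against a floor of 3 UMIs. Classes under 50 cells were not compared. Named genes were the 7 members, pathway genes at 10 CPM or more, and the 5 closest profiles to Dhh, Gli1 and Hhip among genes at 5 CPM or more. Genes outside this rule (Scgb3a2, Rhebl1, Foxf1, the subset markers) were named after their values were seen, and some genes are not reported here. The members and lists were chosen with earlier results of these data known. Scripts were tested on simulated data and used Python 3.11.15, numpy 2.4.6, scipy 1.17.1, pandas 2.3.3 and matplotlib 3.10.9.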

Additional observations from a re-analysis of the deposited data

Results flagged for a closer look

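Ptch1 lay on opposite sides of equality in the libraries when fibroblasts were set over endothelial cells. The log2 ratio was 0.30 in the GFP-negative library and -0.34 in the RA library. With 1 library per group the difference between these ratios was not tested, and both intervals include equality. With a gate of 2 markers, which left fewer cells, the GFP-negative log2 ratio was -0.67, on the same side as RA. The opposite signs were thus not kept under that gate, for which no interval is given.

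Shh, a ligand the comparisons did not use, had 18 UMIs in the 85 cells of the GFP-positive library that passed the epithelial gate, alone or with other gates.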

How the results depend on the processing

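No paired analysis was possible because each group had 1 library. Of 326 values recomputed for 51 results under 10 alternative settings, 282 stayed within the limits set, 44 moved and 0 changed the sign of a called value. The mean of per-cell CPM gave no log2 ratio in 4 cases with a class at 0. The leading-class gate was chosen after seeing the data. Where a value moved, the cause was not tested.

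With a gate of 2 markers the endothelial cells numbered 884, 52 and 60 in the GFP-positive, GFP-negative and RA libraries, glial cells 20, mural cells 101, and fibroblasts 351 in GFP-negative and 52 in RA. Dhh in GFP-positive endothelial cells was then 95.2 CPM, Ptch1 was 8.98 CPM in GFP-negative fibroblasts and 2.85 CPM in mural cells, Gli1 and Hhip were 1.42 CPM each in mural cells, and Hhip was 3.55 CPM in RA fibroblasts. Log2 ratios under that gate were 0.69 for Gli1 of mural over endothelial cells, -2.45 for Gli1 of mural cells over fibroblasts, 0.16 for Hhip and 0.56 for Ptch1 of GFP-negative over RA fibroblasts, and -0.67, -2.03 and -1.36 for Ptch1 of fibroblasts over endothelial cells, mural over endothelial cells and mural cells over fibroblasts. The Ptch1 and Hhip calls between fibroblasts of the libraries were thus not kept under it. No interval is given for values under that gate, which left fewer cells. A gate of 4 markers gave 391 mural cells, 431 RA fibroblasts, Dhh at 8.82 CPM in GFP-negative endothelial cells with a log2 ratio of 3.72 for GFP-positive over GFP-negative, and Hhip at 1.16 CPM in mural cells with a log2 ratio of -2.39 over fibroblasts. The leading-class gate gave 409 mural cells, 260 RA endothelial cells, 454 RA fibroblasts, Dhh at 7.91 CPM and a log2 ratio of 3.87 in the same cells, and Hhip at 0.873 CPM in mural cells with a log2 ratio of -2.70 over fibroblasts. Thinning to 2000 UMIs gave Dhh levels of 128 CPM in GFP-positive, 0 in GFP-negative and 0 in RA endothelial cells and 102 CPM in glial cells, Ptch1 at 15.3 CPM in GFP-negative and Gli1 at 0 in RA fibroblasts, and a log2 ratio of 0.84 for Hhip of GFP-negative over RA fibroblasts. With 5 UMIs added the fibroblast over endothelial log2 ratios were 1.54 for Gli1 and 0.70 for Hhip. With at least 50 UMIs per gene the share past 2-fold between GFP-negative and RA was 1.99% in endothelial cells and 7.13% in fibroblasts.

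Depth limits Gli1, Gli2 and Hhip most, since a class had at most 183 UMIs of any of them under either gate, and Dhh in GFP-negative and RA endothelial cells rests on 3 UMIs each.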
